A study of Rattus norvegicus albus with 14 samples.

Results

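Cytosolic ribosomal protein genes encode the proteins that, together with ribosomal RNA, build the ribosomes of the cytoplasm. The set was chosen by symbol, as every gene named Rpl or Rps with a number (also with the endings a, x, l or l1) and the 4 genes Rplp0, Rplp1, Rplp2 and Rpsa. A total of 97 entries matched. Where a symbol had several entries, the entry with the most counts was kept. This left 86 genes of 32545, of which 53 encode proteins of the large subunit or their paralogs and 33 those of the small subunit. The 11 second entries held 3910 counts in all, against 8501462 in the kept entries.

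Levels were measured by RNA sequencing in neonatal rat ventricular myocytes (NRVMs), heart muscle cells of 1-day-old Sprague-Dawley rats. Per the labels' protocols, isolated cells were preplated against fibroblasts, pooled and plated on fibronectin. The vehicle group received 1% DMSO for 0.5 h and comprised 1 library. The other groups received 10 µmol/L rosiglitazone, a thiazolidinedione agonist of the nuclear receptor PPARγ, in 1% DMSO for 0.5, 24 or 48 h, with 2 libraries each. All groups were kept in medium with insulin, transferrin and selenium. Vehicle cells of 24 and 48 h were not analysed here, so hours of rosiglitazone and hours in culture cannot be told apart in any comparison between times. The labels do not tie the libraries of a group to separate cultures, so the p-values measure the spread between libraries, which may be technical.

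The small subunit of the ribosome decodes the messenger RNA, and the large subunit joins the amino acids and releases the growing chain through a tunnel. Each ribosome takes up 1 copy of nearly every ribosomal protein, and the stalk proteins are present in more copies. Messenger RNAs of ribosomal proteins begin with a pyrimidine tract (TOP motif), through which mTOR signalling and LARP1 set their translation and stability. Ribosome number is known to increase when heart muscle cells grow.

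Library totals lay between 24341710 and 28074620 counts, except for 48 h replicate 2 with 10886559. The summed level of the 13 genes of the cardiomyocyte marker list was 8259 CPM (counts scaled to the size of the library) in DMSO, 13848 to 14870 at 0.5 h of rosiglitazone, 3322 to 13060 at 24 h and 537 to 2130 at 48 h. In this list the name Ttn was matched by a synonym to the gene Dbi, so the sum holds Dbi and not titin. Dbi alone was at 137 CPM in DMSO, 128 and 168 at 0.5 h, 635 and 236 at 24 h and 145 and 329 at 48 h. The summed level of 7 fibroblast markers was 51125 CPM, 49808 to 51128, 32415 to 34145 and 16894 to 32381 in the same order, and was above the cardiomyocyte sum in every library. In DMSO most of it was Col1a1 (26088 CPM) and Col3a1 (20161 CPM). These markers did not move together. Dcn was at 808 and 994 CPM at 0.5 h of rosiglitazone and 8477 and 4549 at 48 h. Pdgfra was at 268 and 311 CPM against 474 and 722. Both libraries of 48 h were below those of 0.5 h for Col1a1, Col3a1 and Tcf21, while Postn and Ddr2 overlapped. Smooth muscle markers were at 302 to 1006 CPM at 24 h and 61.7 to 363 at 48 h, against 2887 to 3590 in the 3 libraries of 0.5 h. No marker was at 0 in all libraries. In such bulk samples, fewer cells of a type and less RNA per cell cannot be told apart.

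The share of all counts that belonged to ribosomal protein genes was larger at 24 and 48 h than at 0.5 h. It was 3.37% in DMSO and 3.05% and 4.11% in the replicates of rosiglitazone at 0.5 h. At 24 h it was 7.54% and 4.63%, and at 48 h 6.23% and 7.91%. Each of the 4 later libraries was above each of the 3 libraries of 0.5 h, and the replicates of 24 h stood furthest apart. The mean at 0.5 h of rosiglitazone was 3.58% ± 0.745 (SD, n = 2). At 24 h it was 6.08% ± 2.06 (SD, n = 2), 1.70 times as large, and at 48 h 7.07% ± 1.19 (SD, n = 2), 1.98 times as large. An exact two-sided permutation test of 2 libraries against 2 cannot give a p below 0.333, so no p is given for these shares. Counting error was small, with 95% Wilson limits of 3.37% to 3.38% in DMSO and 7.90% to 7.93% in the shallowest library. Members took 7 to 10 places among the 100 genes with the most counts at 0.5 h, 31 and 15 at 24 h and 25 and 27 at 48 h.

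**Figure D1:**
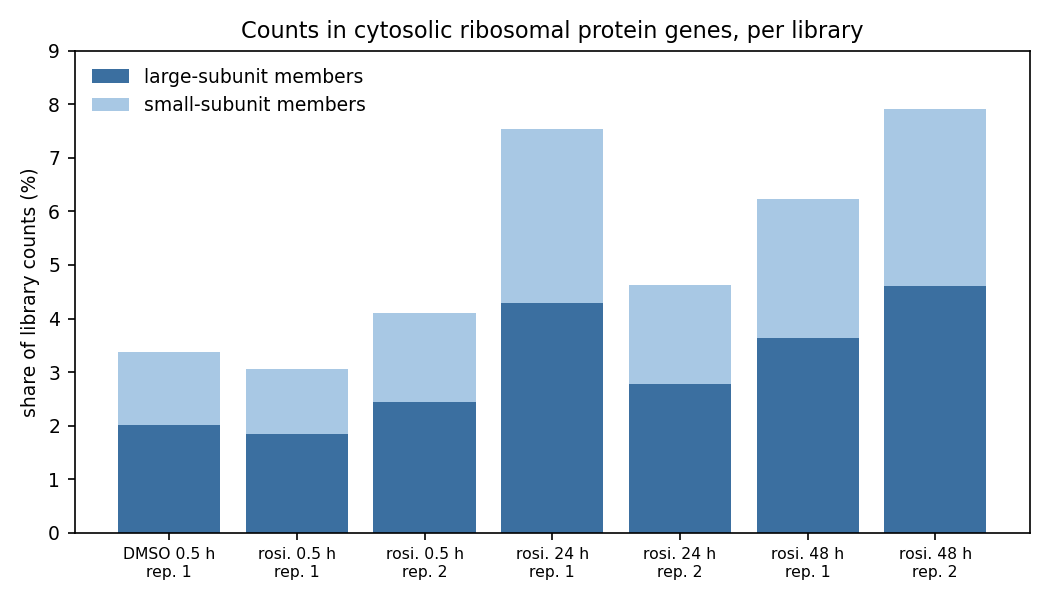
Share of library counts, in percent, that belonged to the 86 cytosolic ribosomal protein genes, 1 bar per library, with large-subunit members in dark blue and small-subunit members in light blue. The 3 libraries of 0.5 h lie between 3.05% and 4.11%, and the 4 later ones between 4.63% and 7.91%.

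Both subunits took part. Large-subunit members held 2.01% of counts in DMSO and, as means of the rosiglitazone groups, 2.15%, 3.54% and 4.13% at 0.5, 24 and 48 h. Small-subunit members held 1.36%, 1.44%, 2.55% and 2.95% in the same order. The ratio of the subunits stayed between 1.32 and 1.53 over the 7 libraries, and both extremes were replicates of rosiglitazone groups, 24 h replicate 1 and 0.5 h replicate 1. The mitochondrial genome held 3.00% of counts in DMSO, 2.57% and 2.40% at 0.5 h, 3.80% and 1.32% at 24 h and 1.94% and 1.25% at 48 h. Its part in the result was not tested. With the mitochondrial genome left out of the totals, the share of ribosomal protein genes was 3.48% in DMSO, 3.14% and 4.21% at 0.5 h, 7.84% and 4.69% at 24 h and 6.36% and 8.01% at 48 h, in the same order of libraries.

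Of the 86 members, 71 had a mean of at least 5 CPM over the 7 libraries, 43 of the large and 28 of the small subunit, and these are described next. Their levels moved together. On the log2 scale, log2(CPM + 0.5), the median deviation of the 71 genes from their own means was -0.53 in DMSO and -0.69 and -0.23 at 0.5 h of rosiglitazone. It was 0.76 and -0.20 at 24 h and 0.36 and 0.65 at 48 h, while the median over all 10500 genes of that level stayed between -0.01 and 0.07. The library of 24 h replicate 1 held the highest level of 38 genes and 48 h replicate 2, the shallowest library, that of 30. The lowest level of 50 genes was in rosiglitazone 0.5 h replicate 1. Over the 7 libraries, the correlation between 2 members had a median of 0.867 over 2485 pairs, and 96.5% of the pairs were positive. These points share libraries and scaling, so the correlations only describe the set.

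**Figure D2:**
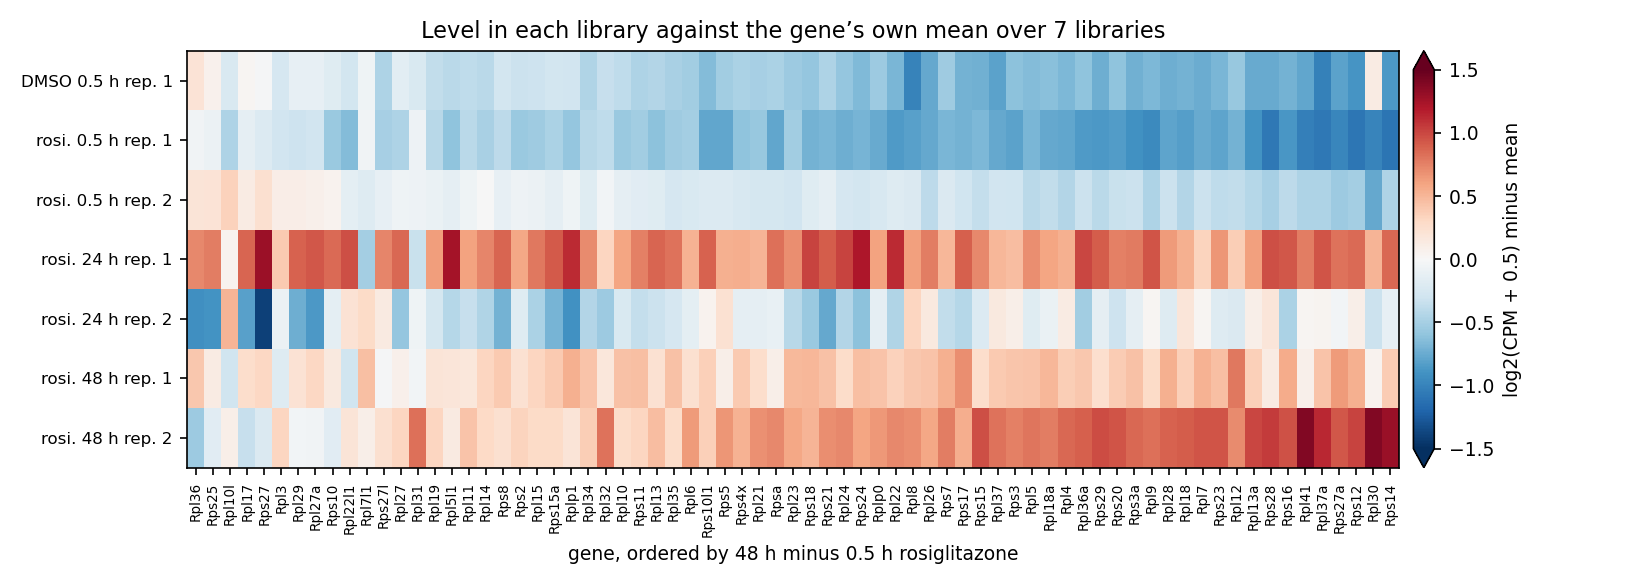
Level of each of the 71 ribosomal protein genes with a mean of at least 5 CPM (columns) in each library (rows), as log2(CPM + 0.5) minus the gene's own mean over 7 libraries, in colour from blue (below the mean) to red (above it); values beyond the colour scale take its end colours. Genes are ordered by the difference between 48 and 0.5 h of rosiglitazone: 24 h replicate 1 is red for 69 genes and 24 h replicate 2 for 19.

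A few members did not share the pattern. The correlation with the median of the other members was -0.10 for Rpl7l1, a nucleolar paralog of Rpl7, against a median of 0.95 over the 71 genes. It was 0.20 for Rpl10l, the retrogene copy of Rpl10 known from male germ cells, 0.21 for Rpl36 and 0.36 for Rpl31. Rps25, needed for some viral and cellular internal ribosome entry, was at 0.39, Rpl17 at 0.41 and Rps27 at 0.48.

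The comparison of rosiglitazone with DMSO at 0.5 h is the only one with vehicle cells of the same time. No member was called by the edgeR quasi-likelihood test at an adjusted p under 0.05 (0 of 78 tested, as for 0% of 15655 genes). None had an unadjusted p under 0.05 (0.607% of all genes), and DESeq2 called none of 83 (0.0108% of all genes). The median log2 fold change of the 71 genes was 0.09, against 0.01 over the 10500 genes of that level, and 59 of 71 were positive. Without rosiglitazone 0.5 h replicate 2 the median was -0.15. DMSO lay between the rosiglitazone replicates for 61 of 71 genes. Both rosiglitazone libraries were above DMSO for 8 genes (30.9% of all genes), namely Rpl6, Rpl8, Rpl23, Rpl26, Rpl31, Rpl34, Rpl37 and Rps15, and both below for Rpl30 and Rpl36 (30.6%).

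At 0.5 h the largest difference was that of Rpl30, which was at 12.5 CPM in DMSO against 5.53 and 6.51 in rosiglitazone, a log2 fold change of -1.06 ± 0.66 (SE, adjusted p = 1). The Rpl30 entry held 1968 counts in all, against 58087 for LOC100362027, an entry outside the set that is paired with human RPL30. That entry had 4912 raw counts in DMSO and 5030 and 6309 in rosiglitazone at 0.5 h, so the values of Rpl30 describe a minor entry. Among the genes with the largest increases, Rpl8 was at 2.23 CPM in DMSO and 2.61 and 4.22 in rosiglitazone. Rpl37 was at 24.8 CPM against 25.4 and 35.6, and Rpl37a at 404 against 388 and 588, with log2 fold changes of 0.30 and 0.27. For these 3 genes the rosiglitazone mean differed from DMSO by less than its replicates differed from each other. The deposited tables hold each library as 2 splits in separate columns. Whether the authors' adjusted p-values took splits as replicates, in this or the other comparisons, was not tested. In the authors' deposited table, 2 of 78 members passed at 0.5 h, both lower (5.96% of all genes), namely Rpl30 (log2 fold change -0.87, adjusted p = 6.3e-05) and the muscle paralog Rpl3l (-0.58, adjusted p = 0.015).

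From 0.5 to 24 h of rosiglitazone, ribosomal protein genes were at higher levels, but the replicates of 24 h differed by about as much. The median log2 fold change of the 71 genes was 0.78, a fold of 1.72, against 0.06 over 10500 genes, and 70 of 71 were positive, from -0.11 for Rpl31 to 1.39 for Rps28. No member was called by edgeR (0 of 78 against 0.0958% of all genes, smallest adjusted p = 0.179 for Rps12). An unadjusted p under 0.05 was given to 20 members, all higher (6.55% of all genes were higher at that p). By DESeq2 5 of 78 passed, all higher (2.76% of all genes): Rps12, Rps27a, Rpl26, Rps28 and Rpl9. For 35 of the 71 genes both libraries of 24 h were above both of 0.5 h (26.9% of all genes), and for 0 both were below (26.7%). The result rests on 24 h replicate 1. Without it, the median log2 fold change was 0.22 and the single member called was Rps27, lower (log2 fold change -1.44, adjusted p = 0.049; 4.49% of all genes were called lower in that fit). Without 24 h replicate 2 the median was 1.14 and 12 members were called higher (1.12% of all genes in that fit). In the authors' deposited table, 43 of 80 members passed, all higher (17.8% of all genes), with the limit on splits given above.

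Between 24 and 48 h no common shift was seen. The median log2 fold change was 0.13 against 0.00 over all 10500 genes, with 53 of 71 positive and a range from -0.67 for Rpl22l1 to 0.73 for Rpl30. No member was called by edgeR (0 of 78 against 0% of all genes, smallest adjusted p = 0.677), none had an unadjusted p under 0.05 (8.14% of all genes) and DESeq2 called none (3.46%). Both libraries of 48 h were above both of 24 h for Rpl7, Rpl12, Rpl31 and Rps7, 4 of 71 (15.9% of all genes), and below only for Rpl22l1, 1 of 71 (15.0%). Without 24 h replicate 1 the median was 0.79, and without 24 h replicate 2 it was -0.28, so that the direction depended on which replicate of 24 h was kept. In the authors' deposited table, 2 members passed as higher (6.99% of all genes), Rpl12 and Rpl7, and 2 as lower (9.46%), Rpl22l1 and Rps19.

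The comparison of 48 with 0.5 h of rosiglitazone separated the groups for most members. For 61 of 71 genes both libraries of 48 h were above both of 0.5 h (36.4% of all genes), and for 0 both were below (32.4%). The 10 genes whose groups overlapped were Rpl3, Rpl10l, Rpl17, Rpl22l1, Rpl27a, Rpl29, Rpl36, Rps10, Rps25 and Rps27. The median log2 fold change was 0.94, a fold of 1.91, against 0.06 over all 10500 genes, and 67 of 71 were positive, from -0.09 for Rpl10l to 1.82 for Rpl30. It was 0.82 over the large and 0.98 over the small subunit, and 0.74 and 0.85 at 24 h.

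At 48 against 0.5 h edgeR called no member (0 of 78, against 6.59% of all genes, 308 higher and 723 lower). The smallest adjusted p was 0.0544, for Rps27a. An unadjusted p under 0.05 was given to 35 members, all higher (9.65% of all genes were higher at that p). DESeq2 called 27 of 76 members, all higher (5.93% of all genes), led by Rps27a, Rpl12, Rps12 and Rpl7 (DESeq2 adjusted p = 0.0013 to 0.0025). With edgeR fitted to these 2 groups alone, 36 members were called, all higher (7.62% of all genes in that fit). The same 36 were called without 24 h replicate 1 (6.75%) and without 24 h replicate 2 (6.19%). The libraries of 24 h enter this comparison through the spread that all groups share, and also through the filter on low counts and the scaling. A group left with 1 library adds nothing to that spread, and neither does the single DMSO library. In the fits that called 36 members, the spread therefore came only from the rosiglitazone replicates of 0.5 and 48 h. The calls without a library of 24 h thus largely repeat the fit of the 2 groups alone and are not separate evidence. No member was called without any 1 library of 0.5 or 48 h.

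**Figure D3:**
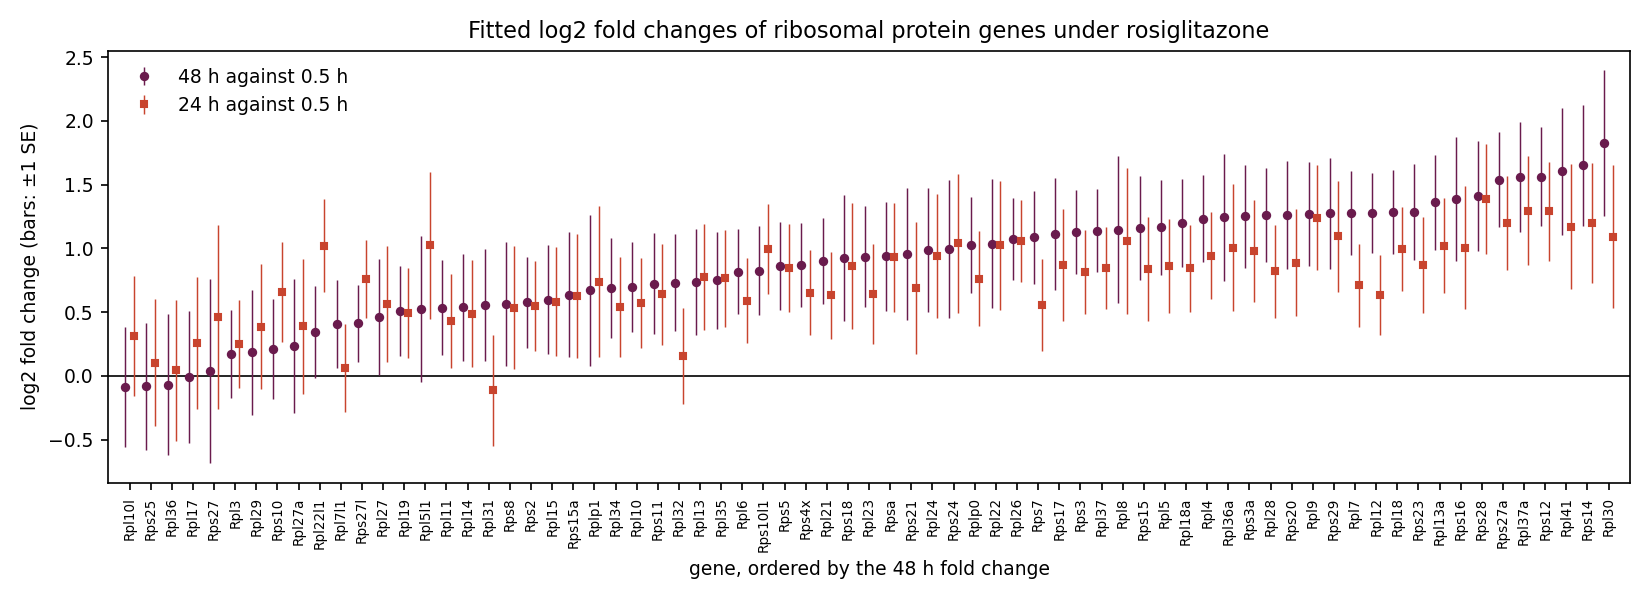
Fitted log2 fold change with its SE (bars) for each of the 71 ribosomal protein genes, for 48 h (circles) and 24 h (squares) against 0.5 h of rosiglitazone, ordered by the 48 h value; both comparisons share the libraries of 0.5 h. Values at 48 h run from -0.09 (Rpl10l) to 1.82 (Rpl30), and 1 gene, Rpl31, lies below 0 at 24 h.

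The stalk of the large subunit recruits elongation factors and is built of Rplp0, Rplp1 and Rplp2 beside Rpl12 at its base. Rplp0 had the most counts of all members by mean CPM. It was at 2159 CPM in DMSO, 1855 and 2648 at 0.5 h, 4777 and 2854 at 24 h and 4242 and 4918 at 48 h, with every later library above those of 0.5 h (log2 fold change at 48 h 1.02 ± 0.37 SE, adjusted p = 0.156). Rpl12 was at 451 CPM, 408 and 515, 860 and 573, and 1153 and 1091 in the same order, and its replicates of 48 h were close together (1.28 ± 0.31 SE, adjusted p = 0.055). Rplp1 was at 465 CPM, 378 and 541, 1232 and 300.1, and 816 and 647, so that 24 h held both its highest and its lowest library. Rplp2, which pairs with Rplp1 in the protein, was listed with 8 counts, all of them in rosiglitazone 0.5 h replicate 2.

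Rpl5 and Rpl11 carry the smallest ribosomal RNA into the large subunit and, when free, bind MDM2 and stabilise p53. Rpl5 was at 634 CPM in DMSO, 621 and 755 at 0.5 h, 1620 and 879 at 24 h and 1343 and 1748 at 48 h, and the later libraries were all above the earlier ones. Rpl11 was at 534 CPM, 524 and 664, 1057 and 547, and 785 and 937. Its library of 24 h replicate 2 lay within the range of 0.5 h, and its log2 fold change at 48 h was 0.53 ± 0.37 (SE), against 1.17 ± 0.37 for Rpl5. The difference between the 2 genes was not tested. Rpl23, which also binds MDM2, was at 518 CPM, 524 and 621, 1224 and 563, and 1061 and 1128.

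Among the proteins at the core of the large subunit, Rpl3 and Rpl4 had high counts and different courses. Rpl4, which lines the exit tunnel, was at 1702 CPM in DMSO, 1571 and 2003 at 0.5 h, 3914 and 2953 at 24 h and 3484 and 4923 at 48 h. Rpl3, near the peptidyl transferase centre, was at 1827 CPM, 1775 and 2328, 2844 and 2045, and 1905 and 2724. Its replicates of 48 h overlapped those of 0.5 h, with a log2 fold change of 0.17 ± 0.34 (SE), while Rpl4 showed 1.23 ± 0.34 (SE, adjusted p = 0.079). Rpl10, which joins the large subunit late in its assembly and completes it, was at 640.0 CPM, 569 and 759, 1259 and 712, and 1138 and 1013.

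Rpl7, Rpl13a and Rpl41, also of the large subunit, had log2 fold changes of 1.28, 1.36 and 1.60 at 48 against 0.5 h, above the median of 0.94. Rpl7 was at 986 CPM in DMSO, 976 and 1313 at 0.5 h, 2070.2 and 1674 at 24 h and 2363 and 3179 at 48 h, and is 1 of the 4 genes with both libraries of 48 h above both of 24 h. Rpl13a, known for a role in silencing of inflammatory transcripts in macrophages, was at 971 CPM, 878 and 1221, 2516 and 1748, and 2104 and 3285. Rpl41, a very short peptide, was at 458 CPM, 385 and 568, 1342 and 804, and 831 and 2067. Both replicates of 48 h were above those of 0.5 h for these 3 genes, and for Rpl41 those of 48 h differed by more than 2-fold.

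Rpl26 and Rpl37a were named by their values at 24 h. Rpl26, at the exit of the tunnel, was at 259 CPM in DMSO, 259 and 338 at 0.5 h, 755 and 488 at 24 h and 597 and 661 at 48 h (24 h log2 fold change 1.06 ± 0.32 SE, adjusted p = 0.182). Rpl37a was at 388 and 588 CPM at 0.5 h, 1559 and 839 at 24 h and 1092 and 1785 at 48 h. Rpl31, the only 1 of the 71 genes with a negative value at 24 h, had low counts, with 10.5 CPM in DMSO, 11.7 and 11.7 at 0.5 h, 9.75 and 11.8 at 24 h and 12.0 and 22.3 at 48 h.

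The smallest p against 0.5 h was that of Rps12 at 24 h and of Rps27a at 48 h, both of the small subunit. Members of the large subunit were also among the 4 smallest, Rpl26 at 24 h and Rpl12 and Rpl7 at 48 h. Rps27a encodes a fusion of ubiquitin and the ribosomal protein S27a, so its transcript also supplies ubiquitin. It was at 499 CPM in DMSO, 442 and 596 at 0.5 h, 1532 and 849.5 at 24 h and 1354 and 1661 at 48 h (48 h log2 fold change 1.54 ± 0.37 SE, adjusted p = 0.0544). Rps12 was at 556 CPM, 483 and 716, 1848 and 1084, and 1482 and 2063 (1.56 ± 0.39 SE, adjusted p = 0.058). In both genes each of the 4 later libraries was above each of the 3 libraries of 0.5 h.

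Rps14, a protein of the platform that is lost in the 5q- syndrome of the bone marrow, was at 583 CPM in DMSO, 496 and 768 at 0.5 h, 1923 and 973 at 24 h and 1373 and 2597 at 48 h. Rps28 was at 191 CPM, 154 and 229, 635 and 368, and 351 and 668. Both were above 0.5 h in all later libraries, and both had replicates that stood far apart at 24 and 48 h. Rps3, which lies at the entry of the messenger RNA and also has a role in DNA repair, was at 1083 CPM, 951 and 1343, 2281 and 1761, and 2206 and 2804. Rpsa, also described as a laminin receptor, was at 1417 CPM, 1144 and 1641, 3489 and 1818, and 2093 and 3238. The groups of 0.5 and 48 h did not overlap in either gene.

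Rps25 and Rpl36 were without a shift at 48 h and low in 24 h replicate 2. Rps25 was at 78.7 CPM in DMSO, 70.7 and 86.5 at 0.5 h, 129 and 40.2 at 24 h and 81.9 and 66.6 at 48 h, and Rpl36 at 53.1 CPM, 44.1 and 52.7, 75.9 and 24.0, and 60.9 and 31.3. Their log2 fold changes at 48 h were -0.08 ± 0.50 and -0.07 ± 0.55 (SE), and both took the other sign when rosiglitazone 0.5 h replicate 2 or 48 h replicate 2 was left out. Rps10 was at 86.5 CPM in DMSO, 67.1 and 103 at 0.5 h, 179 and 89.1 at 24 h and 109 and 87.5 at 48 h, and Rpl30 at 16.6 and 9.08 CPM at 24 h and 11.9 and 30.9 at 48 h.

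**Figure D4:**
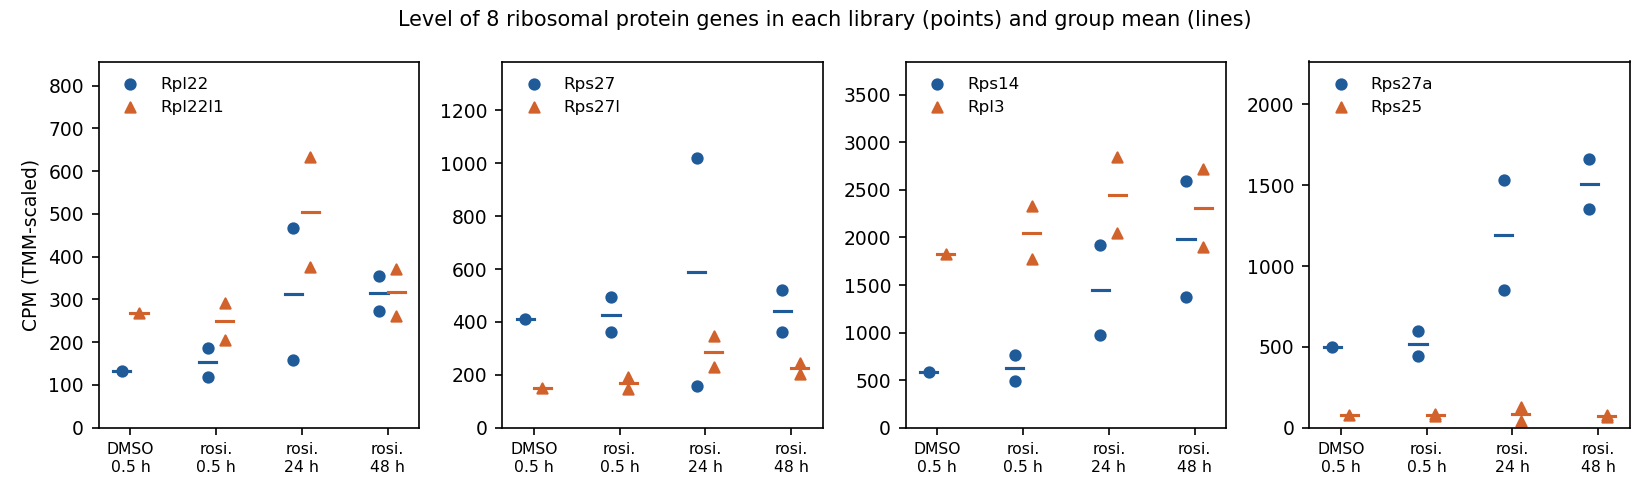
Level in CPM of 8 ribosomal protein genes in each library (points), with the group mean (lines), in 4 panels whose linear axes start at 0 and differ in range. Rps14 and Rps27a are higher in all 4 later libraries, while Rpl3, Rps25, Rps27 and Rpl22l1 overlap between 0.5 and 48 h.

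Paralogs were compared with their parent genes by the ratio of their counts within a library, which is not corrected for length. Rpl22l1 and Rpl22 encode alternative forms of 1 protein, and Rpl22 is known to repress Rpl22l1. Rpl22 was at 133 CPM in DMSO, 119 and 187 at 0.5 h, 466 and 157 at 24 h and 274 and 354 at 48 h. Rpl22l1 was at 267 CPM, 206 and 292, 633 and 376, and 262 and 371, and had the largest negative value between 24 and 48 h (log2 fold change -0.67 ± 0.36 SE). The ratio of Rpl22l1 to Rpl22 was 2.00 in DMSO, 1.73 and 1.56 at 0.5 h, 1.36 and 2.39 at 24 h and 0.957 and 1.05 at 48 h. Both libraries of 48 h were below all 5 others, and the difference in ratio was not tested.

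Rps27 and its p53-responsive paralog Rps27l parted in 24 h replicate 2. Rps27 was at 412 CPM in DMSO, 363 and 493 at 0.5 h, 1021 and 158 at 24 h and 519 and 360.1 at 48 h. Rps27l was at 151 CPM, 148 and 191, 346 and 229, and 205 and 245, and the ratio of Rps27l to Rps27 was 1.44 in 24 h replicate 2 and 0.338 to 0.681 in the other 6 libraries. Rps10l1 was at 0.843 of the counts of Rps10 in DMSO, 0.993 and 0.969 at 0.5 h, 1.19 and 1.34 at 24 h and 1.35 and 1.69 at 48 h. All 4 later ratios of this pair were above the 3 of 0.5 h. Rpl7l1, Rpl10l and Rpl5l1 were at 0.00788 to 0.0523 of the counts of their parents in every library. Rpl7l1 was at 50.8 CPM in DMSO, 51.1 and 46.3 at 0.5 h, 37.0 and 64.6 at 24 h and 72.7 and 56.4 at 48 h. Near-identical copies can share reads, and how such reads were counted is not given in the sources used here, so the split between a gene and its copies is uncertain.

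Replicates of 1 group differed in the whole set at once. At 24 h, 68 of 71 genes were higher in replicate 1, with a median log2 ratio of 0.89 between replicates, and 29 differed by more than 2-fold, against 25.2% of all 10500 genes. The median log2 ratio of replicate 1 to 2 was -0.43 at 0.5 h, where 1 gene was higher in replicate 1, and -0.27 at 48 h, where 20 were. At 24 h the ratio was widest for Rps27 (log2 ratio 2.69) and Rplp1 (2.04), and narrow for Rpl7 (0.31), Rpl4 (0.41) and Rpl3 (0.48). Across the 71 genes, the log2 ratios at 24 and 48 h had a Pearson r of 0.43 and a Spearman rho of 0.47, given as a description because genes of 1 library are not independent. Rps27, Rpl36, Rpl17 and Rplp1 were at the upper end of both, and Rps14, Rpl41 and Rpl30 had their higher level in replicate 1 at 24 h and in replicate 2 at 48 h.

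**Figure D5:**
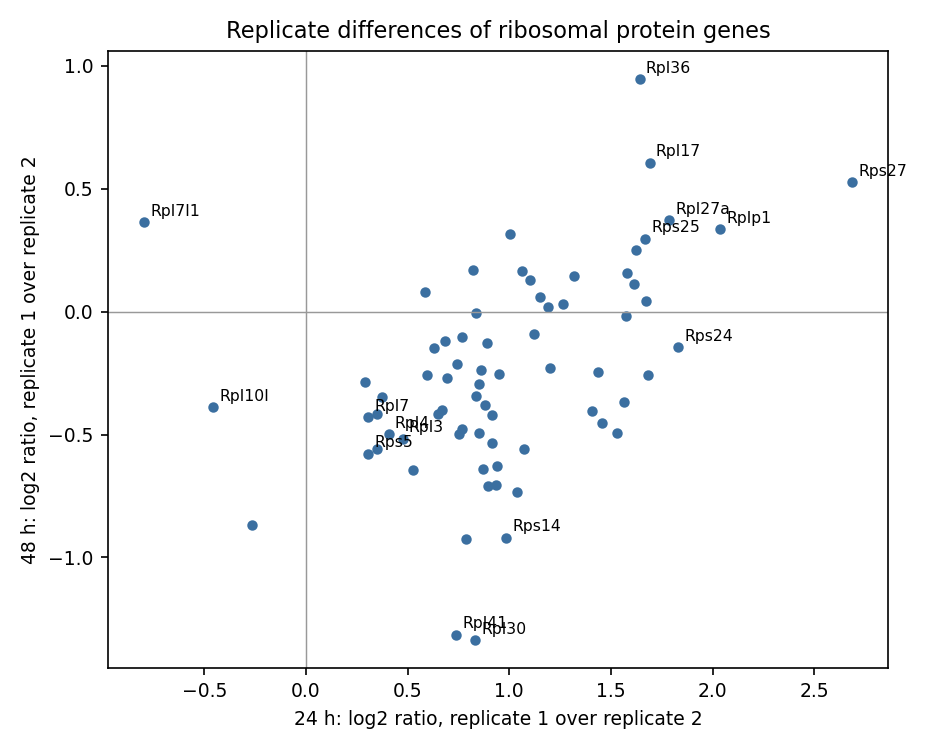
Log2 ratio of replicate 1 to replicate 2 for each of the 71 ribosomal protein genes, at 24 h (horizontal) and 48 h (vertical) of rosiglitazone. At 24 h 68 genes lie right of 0, and at 48 h 20 lie above it, with Rps27 at 2.69 and 0.53.

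For 5 of the 7 marker lists, the replicates of all 3 rosiglitazone groups were in the same order as for the ribosomal protein share, namely lower in replicate 1 at 0.5 and 48 h and higher in it at 24 h. These were the red blood cell, macrophage, fibroblast, endothelial and epicardial lists, and the cardiomyocyte and smooth muscle lists had the other order at 0.5 h. The sum of 4 red blood cell markers was 107 CPM in DMSO, 190 and 355 at 0.5 h, 423 and 176 at 24 h and 156 and 351 at 48 h. That of 10 macrophage markers was 948 CPM in DMSO, 273 and 369 at 0.5 h, 452 and 168 at 24 h and 177 and 375 at 48 h. The macrophage sum was highest in DMSO. Its largest member in every library was Lyz2, at 356 CPM in DMSO, 90.9 and 141 at 0.5 h, 339 and 105 at 24 h and 92.6 and 283 at 48 h. Csf1r was lower in every library of 24 h (15.5 and 14.2 CPM) and 48 h (6.37 and 11.3) than at 0.5 h of rosiglitazone (33.4 and 37.8), while Cd68 overlapped. The 7 fibroblast markers summed to 49808 and 51128 CPM at 0.5 h, 34145 and 32415 at 24 h and 16894 and 32381 at 48 h. Endothelial markers summed to 166 and 191 CPM at 0.5 h, 91.5 and 50.2 at 24 h and 40.8 and 45.2 at 48 h, and epicardial ones to 227 and 235, 157 and 54.6, and 59.8 and 61.6. The part of these cell types, of depth and of the lower cardiomyocyte marker levels in the ribosomal protein results was not tested.

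The remaining 15 members had a mean below 5 CPM. Rpl10a, Rpl23a and Rps6, which takes the phosphate groups added by S6 kinase, were listed at 0 in every library, and so was the second entry of Rps6. A count of 0 allows up to 3 counts, or 0.107 CPM in the deepest and 0.276 CPM in the shallowest library before scaling. Rpl35a and Rpl38 had 1 count in all, Rpl7a 5 and Rps19l1 12. Since proteins such as Rps6 are part of every ribosome, these values say only how the genes are listed, not that their transcripts were absent. Rps19, mutated in Diamond-Blackfan anaemia, had 7 counts in DMSO, 6 and 0 at 0.5 h, 8 and 17 at 24 h and 0 and 0 at 48 h. Its lower value at 48 against 24 h in the authors' deposited table (log2 fold change -1.57, adjusted p = 0.021) rests on these counts.

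Rps9 had 97 counts in all, Rpl39 121 and Rps18l1 382. The muscle paralog Rpl3l had 49 counts in DMSO, 8 and 0 at 0.5 h, 0 and 27 at 24 h and 8 and 13 at 48 h. Rpl39l, a paralog of Rpl39, had 27 counts in DMSO, 7 and 0 at 0.5 h, 6 and 0 at 24 h and 13 and 0 at 48 h. Rpl30l1 had 13 in DMSO and 1 to 6 in the other libraries. These 3 were among the 4 members of smallest p at 0.5 h, each with its highest count in the single DMSO library and none past the threshold. Of the 15, 7 were tested.

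Partners of the ribosome that carry TOP motifs or act in translation were also at higher levels at the later times, without a call. Of 19 tested genes of this list, 0 were called higher or lower in any comparison, and the median log2 fold change was 0.57 at 24 h and 0.75 at 48 h against 0.5 h, where the medians over all genes tested were -0.03 and -0.07. The elongation factor Eef1a1 was at 3878 CPM in DMSO, 3588 and 4553 at 0.5 h, 5391 and 4784 at 24 h and 7547 and 7417 at 48 h. The poly(A)-binding protein Pabpc1 was at 2239 CPM, 1920.5 and 2459, 3292 and 4851, and 5966 and 4365 (48 h log2 fold change 1.24 ± 0.36 SE, adjusted p = 0.087). Both genes had later libraries that were all above those of 0.5 h. The elongation factor Eef2 had 0.44 ± 0.30 (SE) at 48 h, the growth-related Tpt1 0.93 ± 0.38 and the subunit partner Rack1 0.97 ± 0.33. Eif3k and Eef1b2 had the smallest p at 24 h, with 0.72 ± 0.28 and 1.11 ± 0.44 (adjusted p = 0.283 and 0.286).

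Factors that make ribosomal RNA and assemble subunits had smaller medians. For RNA polymerase I and its factors, 0 of 19 tested genes were called and the median log2 fold change was 0.33 at 24 h and 0.42 at 48 h. Myc, a driver of ribosome production, was at 60.5 CPM in DMSO, 84.7 and 62.0 at 0.5 h, 72.7 and 77.0 at 24 h and 120.1 and 66.0 at 48 h, with overlapping groups. In the small-subunit and rRNA processing list 3 of 39 tested genes rose from 0.5 to 48 h and 0 fell (1.97% of all genes rose, and 6.59% passed in either direction), with a median of 0.58. These were the processing factors Rcl1 (2.14 ± 0.41 SE, adjusted p = 0.029), Imp4 (1.19 ± 0.26, adjusted p = 0.040) and Pno1 (1.11 ± 0.25, adjusted p = 0.045). The box C/D methyltransferase fibrillarin, Fbl, had 0.53 ± 0.28.

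In the large-subunit assembly list 3 of 44 tested genes rose at 48 h and 0 fell (1.97% of all genes rose, and 6.59% passed in either direction), with a median of 0.68. Rpf2, which helps to load the Rpl5 and Rpl11 particle, was at 39.0 CPM in DMSO, 37.4 and 42.5 at 0.5 h, 76.0 and 93.2 at 24 h and 101 and 104 at 48 h (1.36 ± 0.27 SE, adjusted p = 0.030). Eif6, which keeps the new large subunit from joining too early, was at 84.2 CPM, 73.8 and 105, 192 and 204, and 225 and 256 (1.42 ± 0.28 SE, adjusted p = 0.030). Wdr12 also passed (1.20 ± 0.28 SE, adjusted p = 0.047). In Rpf2 and Eif6 the replicates of 24 h were closer together than those of most ribosomal protein genes. The nucleolar proteins Ncl and Npm1 had 1.11 ± 0.34 and 0.90 ± 0.27 at 48 h and did not pass (adjusted p = 0.10 and 0.095).

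Regulators of TOP translation had medians close to those of all genes, 0.09 at 24 h and -0.03 at 48 h over 29 tested genes. At 48 h 1 of the 29 rose and 0 fell, a share near that of all genes that rose (1.97%). Ddit4, an inhibitor of mTOR complex 1, was at 37.8 CPM in DMSO, 42.1 and 44.3 at 0.5 h, 90.7 and 110.4 at 24 h and 275 and 226 at 48 h (2.54 ± 0.27 SE, adjusted p = 0.007). The S6-kinase family member Rps6ka3 had -0.86 ± 0.24 (adjusted p = 0.076). Deptor, also an inhibitor of mTOR, was at 11.5 CPM in DMSO, 7.05 and 6.69 at 0.5 h, 0.481 and 1.02 at 24 h and 1.28 and 1.95 at 48 h, and did not pass at 24 h (adjusted p = 0.114).

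Genes that p53 induces had a median of 0.66 at 48 h over 12 tested, of which 2 rose and 0 fell, where 1.97% of all genes rose. Gadd45a, which acts in growth arrest, was at 60.6 CPM in DMSO, 69.2 and 70.1 at 0.5 h, 203 and 358 at 24 h and 516 and 411 at 48 h (2.73 ± 0.35 SE, adjusted p = 0.012). Cdkn1a, which encodes the cell cycle inhibitor p21, was at 116 CPM, 157 and 157, 238 and 249, and 514 and 460 (1.63 ± 0.25 SE, adjusted p = 0.016). Mdm2, which Rpl5 and Rpl11 bind as free proteins, was at 128 CPM, 165 and 142, 129 and 159, and 315 and 183 (adjusted p = 0.251).

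Mitochondrial ribosomal protein genes encode the proteins of the separate ribosome of the mitochondria. Over 72 tested genes the median log2 fold change was 0.48 at 24 h and 0.35 at 48 h against 0.5 h, and 0 were called in any comparison. From 24 to 48 h their median was -0.20 with 15 of 72 positive, while that of the cytosolic genes was 0.13 with 53 of 71 positive. The difference between the lists was not tested, and the direction of the cytosolic median depended on which replicate of 24 h was kept, as given above. Mrps18b was at 26.2 CPM in DMSO, 28.9 and 33.3 at 0.5 h, 88.7 and 68.7 at 24 h and 58.7 and 82.0 at 48 h (48 h 1.18 ± 0.31 SE, adjusted p = 0.065).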

How the data were processed

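RNA of 7 libraries in 4 groups was measured. Each library had been deposited as 2 splits, which differed by less than the sampling noise (chi-square over its degrees of freedom from 0.963 to 1.02, lowest p = 0.112) and were summed. Replicates of a group differed by 49.1, 278 and 118 on that scale at 0.5, 24 and 48 h. The libraries were made with a directional kit, per the labels' protocols. FastQC 0.11.5, cutadapt 1.11, HTSeq and DESeq2, and the builds Rnor_6.0 and hg19, are named in the submitters' processing notes. The aligner, the strand setting and the treatment of reads with several matches were each not given in the sources used here. The deposited tables hold raw counts per gene and, per the file headers, the authors' own log2 fold changes and adjusted p-values. Of 33005 entries, 460 repeat a gene and each gene was used once.

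Counts were tested with edgeR 4.0.16 in R 4.3.3 (quasi-likelihood, TMM scaling, the tool's filter on low counts, 4 groups in 1 fit, no replicate block) over 15655 genes, with 3 residual degrees of freedom. Adjusted p-values are Benjamini-Hochberg values over all 15655 genes, called below 0.05, and none was adjusted over the set alone. CPM are counts relative to the TMM-scaled library size, as edgeR gives them. The SE is the size of the log2 fold change divided by the root of its F statistic. Fitted fold changes of members below 5 CPM are not given. Intervals and limits hold counting error alone, because reads carried no molecular identifiers and are not independent molecules. Alternatives were DESeq2 1.42.0, other scalings and filters, other thresholds, splits alone or as replicates, a replicate block, only the groups compared, and each library left out. The fit was tested on data simulated with the fitted spread. For each comparison a 2-fold change was set in 50 genes drawn from all genes tested. Of these, 0 were called for rosiglitazone against DMSO, 2 at 24 against 0.5 h, 2 at 48 against 24 h and 1 at 48 against 0.5 h. With a 4-fold change 6, 12, 19 and 23 of 50 were called in the same order. A missing call therefore says little about changes of 2-fold or less.

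The members, the 7 gene lists and the marker lists were chosen with earlier results of these data known. Of 305 list entries, 298 were matched, 7 by a synonym, which gave Dbi for Ttn. Members were named if they were a paralog with its parent, a stalk member, Rpsa or a member with a known role off the ribosome, of the 4 smallest p or the 3 largest changes in either direction in a comparison, or of the 3 highest or lowest mean levels. Other members are named to account for a count or to give the role of a group, after their values were seen. From each list, genes of smallest p at 24 and 48 h against 0.5 h were named, together with Myc, Mdm2, Eef1a1, Eef2, Tpt1, Fbl, Ncl and Npm1. Gas5 had no match and is not analysed here.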

Additional observations from a re-analysis of the deposited data

How the results depend on the processing

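The direction of the members' median held under every scaling, filter and split tried, and turned only where a library was left out, at 0.5 h and between 24 and 48 h. Leaving out each library gave medians of -0.15 to 0.28 for rosiglitazone against DMSO, 0.22 to 1.14 for 24 against 0.5 h, -0.28 to 0.79 for 48 against 24 h and 0.68 to 1.22 for 48 against 0.5 h. Counts of calls depended on the fit, and causes were not tested beyond the fewer samples or genes that a fit holds. Members called at 48 against 0.5 h (0 as reported) were 15 at a threshold of 0.1, 8 with no filter, 50 with each split as its own replicate, 36 with only the 2 groups, 27 by DESeq2 and 0 to 36 with a library left out. At 24 against 0.5 h they were 48 with splits as replicates, 5 by DESeq2 and 0 to 12 with a library left out, and at 48 against 24 h 3 with splits as replicates. Genes called against DMSO (0) were 1 with no filter, 78 with splits as replicates, 174 with only the 2 groups and 2 by DESeq2. Genes called at 24 against 0.5 h (15) were 206 and 0 at thresholds of 0.1 and 0.01, 334 with no filter, 5629 with splits as replicates, 0 with only the 2 groups, 1253 by DESeq2 and 0 to 1008 with a library left out. At 48 against 24 h (0) they were 19 with no filter, 2890 with splits as replicates, 510 by DESeq2 and 0 to 509 with a library left out. At 48 against 0.5 h (1031) they were 1936 and 53 at the other thresholds, 6943 with splits as replicates, 2733 with only the 2 groups, 2591 by DESeq2 and 12 to 2706 with a library left out.

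Deviations of same-numbered libraries correlated at -0.083 (0.5 and 24 h), 0.062 (0.5 and 48 h) and -0.122 (24 and 48 h) over genes. No pairing by replicate number was seen in this way, although 2 libraries a group cannot exclude it. Over the 71 members, the log2 ratios of the replicates had a Pearson r of -0.13, 0.25 and 0.43 in the same order. With the replicate number as a block, 1 gene was called at 24 and 407 at 48 against 0.5 h, with 0 members, and the members' medians were 0.76 and 0.93.

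The share of 3.37% in DMSO, judged against its narrow counting interval, was 3.36% and 3.38% in the first and second splits, 3.48% without the mitochondrial genome, 3.15% without Rplp0 and 3.41% with the entries matched by human homolog, an alternative chosen after seeing the data. Single genes took the other sign in some fits, none of them past the threshold there. With each library left out, Rpl37a ranged from -0.058 to 0.54 and Rpl22l1 from -0.38 to 0.13 against DMSO, and Rpl36 was 0.35 with the block. At 24 against 0.5 h, Rpl31 was 0.0083 in the first splits and ranged from -0.28 to 0.014 with a library left out. At 48 against 24 h the ranges were -0.10 to 1.25 for Rpl30, -1.13 to 0.62 for Rpl5l1 and -0.88 to 0.15 for Rps10. At 48 against 0.5 h they were -0.47 to 0.40 for Rpl10l, -0.28 to 0.071 for Rps25 and -0.66 to 0.33 for Rpl36. Rps25 was 0.0090 and Rpl36 0.025 in the second splits. Depth was 10886559 counts in the shallowest library, 48 h replicate 2, where 3 counts are 0.276 CPM, a floor that limits the members of low counts. That library also had the largest share of ribosomal protein counts, 7.91%. The part of depth in the results was not tested.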

Other observations

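Some transcripts of ribosomal protein genes may be counted under entries with other symbols. A total of 89 entries outside the set are paired in the deposited tables with a human ribosomal protein gene, and 70 of them had counts. LOC100362027, paired with human RPL30, held 58087 counts in all, against 1968 for Rpl30. Its raw counts were 4912 in DMSO, 5030 and 6309 at 0.5 h of rosiglitazone, 13926 and 9199 at 24 h and 11677 and 7034 at 48 h. These are not scaled to library size, and 48 h replicate 2 had 10886559 counts in all, against 24341710 to 28074620 in the other libraries. The value of 7034 is therefore not a lower level than the others of the later times. LOC684988, paired with RPS13, held 17468 counts, and no member carries the symbol Rps13. RGD1565183, paired with RPL28, held 5480. With all these entries added, the share of counts in ribosomal protein genes was 3.41% in DMSO, 3.09% and 4.15% at 0.5 h, 7.63% and 4.67% at 24 h and 6.30% and 8.00% at 48 h.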
